A study of Homo sapiens with 8 samples.

Results

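The genes of the centromere and the kinetochore were followed in A549 cells, a line of epithelial lung adenocarcinoma cells, that were left untreated or given indisulam, SPHINX31 or the combination of both. Indisulam is a molecular glue that brings the splicing factor RBM39 to the ubiquitin ligase adaptor DCAF15 for degradation, and SPHINX31 inhibits SRPK1, a kinase of SR splicing proteins. Each of the 4 groups had 2 libraries, which the series describes as technical duplicates, so the p-values below measure only the spread between such libraries. All groups were grown in RPMI with 10% fetal bovine serum. The study's methods give 0.5 µM indisulam, 5 µM SPHINX31 and 24 h for A549, whereas the protocol text in the labels, the same for all 8 samples including the untreated ones, gives 2 µM indisulam and 18 h. A vehicle in the untreated cells was not stated in the sources used here. The set has 42 members of the 60624 genes in the files: CENP genes, the NDC80, MIS12 and SKA complexes, KNL1 and ZWINT, factors that load CENP-A, and spindle checkpoint genes. The set was selected on measured values, since CENPI was the strongest fall in the combination against untreated. That contrast is therefore given as a description with no p. It shares its untreated libraries with the tests of indisulam alone and of SPHINX31 alone, and its combination libraries with the 2 tests of the combination against a single compound. The interaction uses both. For this reason CENPI is given no p in any comparison, though the counts of calls include it.

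The centromere is marked by nucleosomes that carry CENP-A, a variant of histone H3. On these nucleosomes sits the constitutive centromere-associated network (CCAN), a scaffold of CENP proteins, which in turn recruits KNL1, the MIS12 complex and the NDC80 complex, the outer part of the kinetochore that binds spindle microtubules. Many of these genes are transcribed with the cell cycle and reach their highest levels in G2 and mitosis, so in a bulk culture fewer cells in that phase and less RNA per cell cannot be told apart.

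Depth was even. Between 51727369 and 63186989 reads per library were counted on genes. The line's epithelial genes were high, with KRT8 at 4085 CPM in untreated cells (CPM is a gene's count relative to the TMM-scaled size of its library), whereas markers of other cell types were low: CD3E had 0 counts in every library, PTPRC at most 3 and COL1A2 at most 1, while PECAM1 had 83 to 133 and COL1A1 175 to 270. Of the 42 members, 41 passed the filter on low counts. The exception was MAD1L1, which encodes the checkpoint partner of MAD2, with 1 to 6 counts per library. Another annotated gene on the same strand covers 43.2% of its exons, so reads that belong to both could have been left uncounted, and no value is given for it. Among the other members the lowest count in any library was 227, for OIP5.

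Indisulam alone moved members in both directions, as it did all genes tested. In indisulam against untreated, 12 of 41 members fell and 8 rose at an adjusted p under 0.05 (edgeR quasi-likelihood test, Benjamini-Hochberg over the 18661 genes tested), where 23.5% of all genes tested fell and 20.1% rose. The median log2 fold change of the members was -0.03, and that of all genes was 0.00. CENPI, CENPK, CENPM, CENPU, SKA2 and OIP5 fell at least 2-fold, and no member rose 2-fold. These are 6 of 41 members, against 6.20% of all genes tested. The 6 include CENPI, which was selected for its fall with the same untreated libraries, so this count is given as a description. The next fall was that of KNL1, by 0.61 on the log2 scale, after OIP5 at 1.06. The complexes of these genes also held subunits that rose or did not pass, such as CENPH, CENPQ and SKA1. Without 1 library at a time the counts ran from 9 to 12 lower and from 6 to 11 higher. BUB1 and DSN1 lost their calls without any single untreated or indisulam library (adjusted p from 0.0544 to 0.121 and from 0.0736 to 0.137), and ITGB3BP, SPC25 and CENPT each without at least 1 of those 4.

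**Figure D1:**
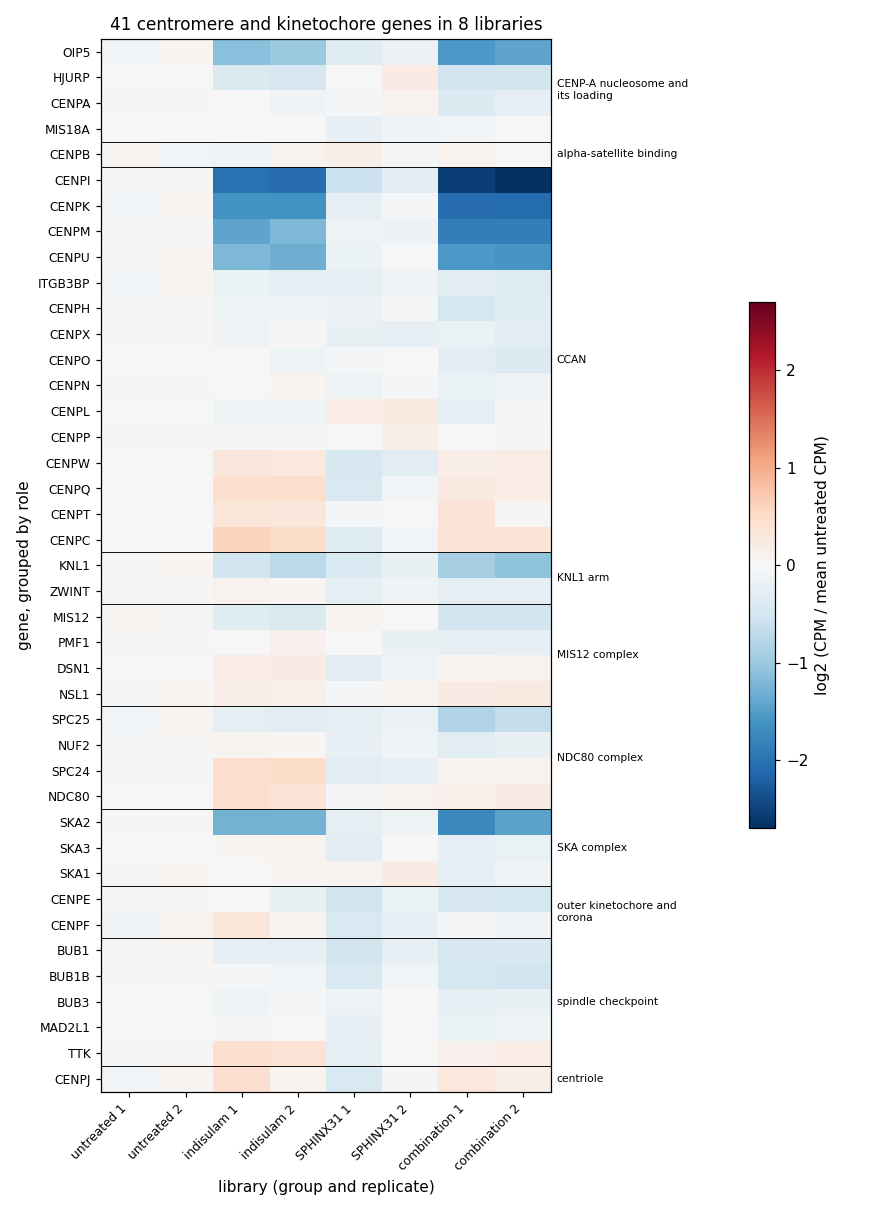
Heat map of the 41 members that passed the filter (rows, grouped by role) in the 8 libraries (columns), coloured by the log2 ratio of CPM to the mean of the 2 untreated libraries. CENPI, CENPK, CENPM, CENPU, SKA2 and OIP5 hold the clearest blue in all indisulam and combination libraries, next to partners that are pale blue, pale red or near white.

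Within the CCAN, the complex of CENP-H, CENP-I, CENP-K and CENP-M, which links CENP-A nucleosomes to the outer kinetochore, had 3 of its 4 genes lowered with indisulam. CENPI (ENSG00000102384, GRCh38 chrX:101098188-101166126) was at 29.0 and 30.4 CPM in the untreated libraries, 7.41 and 7.16 with indisulam, 19.8 and 24.4 with SPHINX31, and 5.07 and 4.59 in the combination. Both libraries of each treatment lay below both untreated libraries, and the 2 combination libraries were the lowest of all. With indisulam it fell to 24.5% of the untreated level (log2 fold change -2.03, SE 0.099). CENPK (chr5:65517766-65563168) was at 36.1 and 40 CPM untreated, 12.4 and 12.3 with indisulam, 32.3 and 36.6 with SPHINX31, and 9.20 and 8.96 in the combination. It fell to 32.5% with indisulam (log2 -1.62, SE 0.079, adjusted p = 8.1e-09). CENPM (chr22:41938737-41947152) was at 17.6 and 16.6 CPM untreated, 6.34 and 7.36 with indisulam, 15.6 and 15.4 with SPHINX31, and 4.72 in both combination libraries. It fell to 39.9% (log2 -1.33, SE 0.086, adjusted p = 8.3e-08).

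CENPH, the fourth subunit of that complex, did not follow. It was at 39.0 and 41.2 CPM untreated and at 36.3 and 36.8 with indisulam, and the difference did not pass (log2 -0.13, 95% interval -0.27 to 0.00, adjusted p = 0.11). The subunits of this complex thus spanned 1.89 on the log2 scale in their change with indisulam. Per kilobase of merged exon, CENPH stood at 18.1 CPM and CENPI at 4.26 CPM in untreated cells, and at 16.5 and 1.04 CPM with indisulam.

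The second mixed complex was that of CENP-O, CENP-P, CENP-Q, CENP-U and CENP-R, which joins the CCAN to the mitotic kinase PLK1 through CENP-U. CENPU was at 27.9 and 29.8 CPM untreated, 12.5 and 11.6 with indisulam, 25.4 and 28.9 with SPHINX31, and 9.90 and 9.61 in the combination. It fell to 41.8% with indisulam (log2 -1.26, SE 0.080, adjusted p = 7.0e-08). CENPQ went the other way, from 8.80 and 8.90 CPM untreated to 11.9 and 12.2 with indisulam, all above the untreated libraries (log2 0.45, SE 0.097, adjusted p = 0.0022). ITGB3BP, the gene of CENP-R, was at 25.1 and 27.7 CPM untreated and 23.2 and 22.3 with indisulam (log2 -0.21, adjusted p = 0.031). That call was lost without untreated replicate 2 (adjusted p = 0.26) and without either indisulam library (0.0537 and 0.143). CENPO and CENPP had log2 fold changes of -0.06 and -0.05 that did not pass. Genes on the opposite strand cover part of the exons of CENPO (ADCY3, 27.0%), CENPP (IPPK, 39.9%) and CENPU (PRIMPOL, 14.9%), and the strand setting of the counting was not given in the sources used here.

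**Figure D2:**
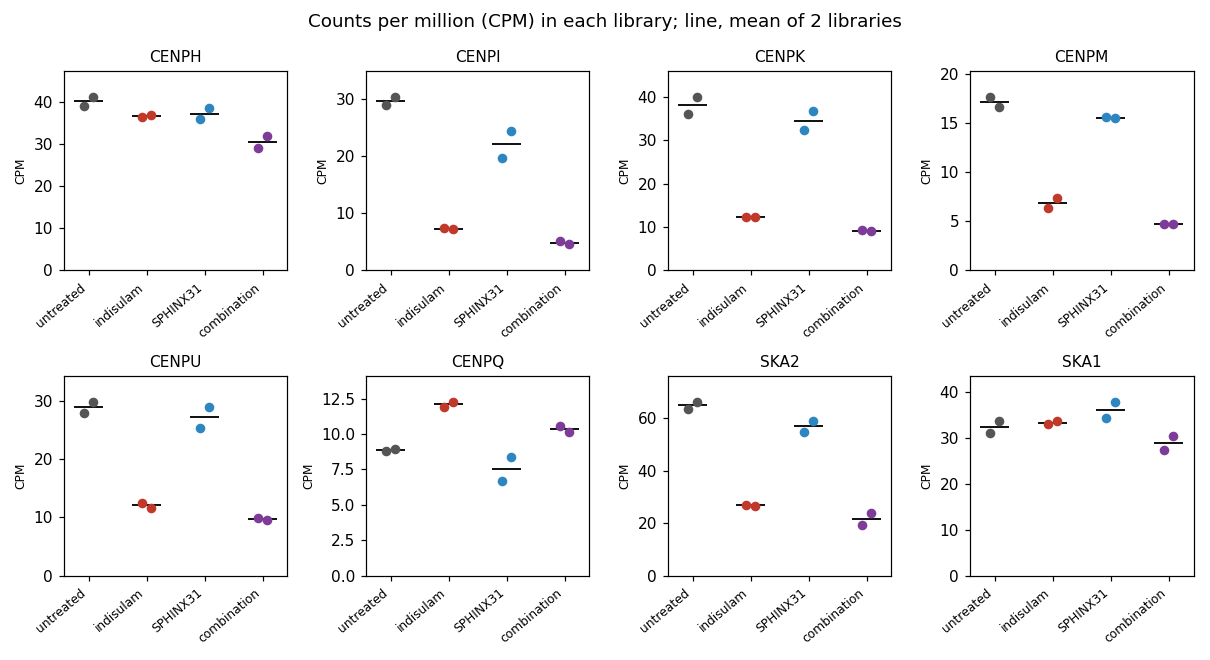
CPM (y axis, from 0) in each library for 8 genes, with points for the 2 libraries of each group (x axis) and a line at their mean. CENPI, CENPK, CENPM, CENPU and SKA2 sit low in both indisulam and both combination libraries. Of their partners in the same complexes, CENPH and SKA1 change less. In the combination CENPH is at 29.02 and 31.92 CPM, against 39.03 and 41.17 untreated. SKA1 is there at 27.48 and 30.55 CPM, against 31.21 and 33.86 untreated. CENPQ lies above untreated with indisulam and in the combination.

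The rest of the CCAN rose or did not pass with indisulam. CENPC, which binds the CENP-A nucleosome directly, was at 14.4 CPM in both untreated libraries and at 22.0 and 20.3 with indisulam, a rise to 147% (log2 0.55, SE 0.086, adjusted p = 0.00018), the largest rise among the members. Of the histone-fold genes of the CENP-T branch, which recruits NDC80 directly, CENPW rose (16.6 and 16.4 against 20.5 and 20.2 CPM, log2 0.30, adjusted p = 0.0029) and so did CENPT (22.2 and 22.4 against 27.9 and 27.6 CPM, log2 0.32, adjusted p = 0.0096), though CENPT missed the threshold without untreated replicate 1 (0.0519). CENPX did not pass (log2 -0.03). CENPL and CENPN, whose products form the pair that reads CENP-A, had log2 fold changes of -0.13 and 0.05 and did not pass.

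Promoter sequence is shown for CENPK, SKA2 and CENPU, of the strongest falls, and for CENPC and CENPQ, which rose, since all of them encode parts of linked structures and moved differently. RefSeq promoters (GRCh38.p14) were found for 34 of the 42 members. Of the genes that fell at least 2-fold there was an entry for 5, and none was found for CENPM. The 150 bases before the start were searched on both strands for CCAAT, the CCAAT box bound by NF-Y, and for TTTGAA, the core of the CHR element found at many G2 and mitosis genes. CCAAT was found for 4 of those 5 genes, for 17 of the 34 and in 23.5% of all 35116 promoters. TTTGAA was found for 0 of the 5, for 5 of the 34 and in 7.33% of all. A member counted if any of its promoter entries held the motif, whereas the shares of all promoters count each entry singly. The shares are therefore not like for like, and no enrichment is read from them. The RefSeq entry for CENPI starts inside the gene as GENCODE v44 draws it and OIP5's window lies in exons of a neighbouring gene, so neither is printed. The sequences below run 5′ to 3′ on the gene's strand and are the stretch of each window that lies in no GENCODE v44 exon, with the matches in capitals.
CENPK, chr5:65563169-65563235, minus strand: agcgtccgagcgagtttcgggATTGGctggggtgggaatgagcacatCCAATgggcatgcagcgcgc
SKA2, chr17:59155261-59155336, minus strand: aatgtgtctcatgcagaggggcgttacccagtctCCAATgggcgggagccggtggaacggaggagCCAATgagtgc
CENPU, chr4:184734131-184734246, minus strand: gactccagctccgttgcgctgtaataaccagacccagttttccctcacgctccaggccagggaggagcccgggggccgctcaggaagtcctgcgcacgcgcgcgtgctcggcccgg
CENPC, chr4:67545504-67545653, minus strand: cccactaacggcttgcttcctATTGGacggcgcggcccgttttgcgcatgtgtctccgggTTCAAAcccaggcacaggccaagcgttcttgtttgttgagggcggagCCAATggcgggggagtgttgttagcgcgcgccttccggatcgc
CENPQ, chr6:49463254-49463369, plus strand: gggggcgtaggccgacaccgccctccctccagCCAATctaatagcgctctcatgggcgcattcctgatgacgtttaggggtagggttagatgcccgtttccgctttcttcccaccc
CENPK and SKA2, which fell, and CENPC and CENPQ, which rose, hold CCAAT here, and CENPC also holds TTCAAA, the reverse complement of TTTGAA. The stretch of CENPU, which fell, holds neither motif.

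Among the genes of the CENP-A nucleosome and its loading, OIP5, which encodes the MIS18 subunit MIS18-beta, was at 11.1 and 12.3 CPM untreated, 5.38 and 5.89 with indisulam, 9.30 and 10.5 with SPHINX31, and 3.97 and 4.35 in the combination. It fell to 48.1% with indisulam (log2 -1.06, SE 0.10, adjusted p = 2.6e-06). The antisense transcript OIP5-AS1 overlaps 63.2% of its exons and had a mean of 8330 counts. HJURP, the chaperone that deposits CENP-A, was at 121 and 124 CPM untreated and at 94.2 and 89.0 with indisulam (log2 -0.42, SE 0.066, adjusted p = 0.00019). CENPA itself was at 37.5 and 39.1 CPM untreated and 38.5 and 35.9 with indisulam (log2 -0.04, 95% interval -0.19 to 0.10), and MIS18A, the partner of OIP5 in the MIS18 complex, had a log2 fold change of 0.00 (95% interval -0.15 to 0.15). Neither passed. CENPB, which binds a motif in alpha-satellite DNA, also did not pass (log2 0.00).

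The outer kinetochore showed smaller changes with indisulam, in both directions within single complexes. KNL1, the scaffold on which the checkpoint kinase BUB1 docks, was at 52.3 and 56.2 CPM untreated and 38.6 and 32.6 with indisulam, a fall to 65.7% (log2 -0.61, SE 0.093, adjusted p = 0.00017). ZWINT, its partner, had a log2 fold change of 0.08 that did not pass. In the NDC80 complex, SPC24 rose from 45.4 and 43.9 to 61.1 and 62.5 CPM (log2 0.47, SE 0.054, adjusted p = 1.3e-05) and NDC80 from 38.8 and 38.2 to 52.2 and 49.5 CPM (log2 0.40, SE 0.064, adjusted p = 0.00021). SPC25, which pairs with SPC24 at the end that faces the MIS12 complex, was at 18.6 and 20.3 CPM untreated and 16.1 and 15.6 with indisulam (log2 -0.29, adjusted p = 0.0086). Its call was lost without untreated replicate 2 (0.10) or indisulam replicate 2 (0.0507). NUF2 did not pass (log2 0.06). In the MIS12 complex, the link between CCAN and NDC80, MIS12 fell from 28.9 and 26.7 to 22.0 and 21.1 CPM (log2 -0.36, SE 0.065, adjusted p = 0.00050), and DSN1 was at 24.3 and 24.6 against 28.2 and 28.3 CPM (log2 0.21, adjusted p = 0.033). NSL1 and PMF1 had log2 fold changes of 0.15 and 0.05 and did not pass. PMF1 shares 23.3% of its exons with the readthrough gene PMF1-BGLAP.

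The SKA complex, which couples kinetochores to depolymerising microtubules, had a single lowered gene. SKA2 was at 63.6 and 66.1 CPM untreated, 26.8 and 26.7 with indisulam, 54.8 and 58.7 with SPHINX31, and 19.4 and 23.6 in the combination, a fall to 41.2% with indisulam (log2 -1.28, SE 0.078, adjusted p = 5.0e-08). SKA1 and SKA3 had log2 fold changes of 0.04 and 0.08, with 95% intervals of -0.12 to 0.19 and -0.10 to 0.25. Of the checkpoint genes, TTK, the kinase that starts checkpoint signalling, rose from 53.4 and 56.2 to 74.3 and 71.6 CPM (log2 0.41, SE 0.071, adjusted p = 0.00041). BUB1 was at 91.4 and 94.8 CPM untreated and at 79.6 and 79.8 with indisulam (log2 -0.22, adjusted p = 0.023). BUB1B, BUB3 and MAD2L1, which encode parts of the mitotic checkpoint complex, had log2 fold changes between -0.09 and -0.01 and did not pass. The motor gene CENPE (log2 -0.09), the corona gene CENPF (log2 0.20) and CENPJ, which encodes a centriole protein despite its name (log2 0.29), did not pass.

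The same question could be asked in cells that also received SPHINX31, with the combination against SPHINX31. This comparison shares no library with indisulam against untreated. It does share the combination libraries with the contrast from which CENPI was taken, so CENPI has no p here. In the combination against SPHINX31, 16 of 41 members fell and 11 rose, where 26.5% of all genes tested fell and 23.4% rose. The 6 genes above again fell at least 2-fold, against 6.39% of all genes. CENPI is among them, so this count too is given as a description. The log2 fold change was -2.19 for CENPI (SE 0.10), -1.93 for CENPK, -1.72 for CENPM, -1.48 for CENPU, -1.40 for SKA2 and -1.25 for OIP5. Of the 12 members lower with indisulam alone, 10 were also lower here, which is 83.3% of the first list and 62.5% of the second, and all 8 that rose with indisulam alone rose here as well (72.7% of the 11). The exceptions were BUB1 (log2 -0.09) and ITGB3BP (log2 -0.14), which did not pass. CENPA, CENPH, CENPL, CENPO, SKA1 and BUB1B fell here (log2 from -0.35 to -0.26) and had not passed with indisulam alone. No member was lower in one comparison and higher in the other. The same overlaps were not counted over all genes tested, so these shares have no background and no trait of the members is read from them. Across the 41 members the log2 fold changes had a Pearson correlation of 0.981 and a Spearman correlation of 0.928, and without the 6 genes the Pearson correlation was 0.91 over 35 members, beside 0.846 over all genes tested. All genes tested include some with lower counts than any member, such as NUSAP1 with 24 to 44 per library. The correlations of members and of all genes are therefore not like for like. Members of one complex, and all points of one axis, come from the same libraries. The count of rises was 4 without SPHINX31 replicate 1 and 7 without combination replicate 2, and the count of falls ran from 15 to 19 when 1 library was left out.

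SPHINX31 alone gave smaller changes. Against untreated, 6 of 41 members fell and 0 rose, where 3.67% of all genes tested fell and 4.94% rose, and the median log2 fold change of the members was -0.15 against -0.01 for all genes. The genes that fell were CENPI (log2 -0.43, SE 0.089), CENPW (-0.36, from 16.6 and 16.4 to 12.3 and 13.4 CPM), BUB1 (-0.35, from 91.4 and 94.8 to 66.3 and 80.2 CPM), CENPE (-0.33, from 82.1 and 86.8 to 59.7 and 74.7 CPM), CENPF (-0.31, from 267 and 305 to 216 and 244 CPM) and SPC24 (-0.26, from 45.4 and 43.9 to 36.5 and 38.0 CPM). CENPW and SPC24 thus fell with SPHINX31 and rose with indisulam. Of the 6 genes that fell at least 2-fold with indisulam, the other 5 had log2 fold changes with SPHINX31 between -0.24 and -0.09 and did not pass. For the count of 0 rises, 20 of 41 members had an unadjusted p under 0.05 in either direction, beside 4501 of the 18661 genes tested. DESeq2 called 8 members lower and 0 higher, with 718 lower and 826 higher over all genes. Over all genes tested, fewer were called lower without SPHINX31 replicate 1 or either untreated library, and more without SPHINX31 replicate 2. The 6 calls above were not stable to the choice of library either. All 6 were lost without SPHINX31 replicate 1 and all 6 without untreated replicate 2, 2 members were called lower without untreated replicate 1, and 15 were called lower without SPHINX31 replicate 2. In SPHINX31 replicate 1, 36 of 41 members were lower than in replicate 2 (median log2 ratio -0.15), beside 52.0% of all genes tested. All 22 genes of a list for S phase were also lower in that replicate (median log2 ratio -0.19). A correction for GC content gave 16 members lower and 1 higher, and it took all genes from 685 lower and 921 higher to 1314 and 1395. Scaling by total counts alone gave 4 members lower and 1 higher, with 515 lower and 1341 higher over all genes.

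SPHINX31 was also compared in the presence of indisulam. This comparison too shares the combination libraries with the contrast from which CENPI was taken, so CENPI has no p here. In the combination against indisulam, 17 of 41 members fell and 0 rose, where 4.32% of all genes tested fell and 3.17% rose. The median of the members was -0.23 on the log2 scale and that of all genes 0.00, and no member changed 2-fold. The falls lay in both the inner and the outer kinetochore. In the CCAN they included CENPI (7.41 and 7.16 against 5.07 and 4.59 CPM, log2 -0.59, SE 0.11). CENPM (log2 -0.53, adjusted p = 0.0052) and CENPK (log2 -0.44, adjusted p = 0.0078) also fell, with CENPU, CENPO and CENPH between -0.31 and -0.26. At the CENP-A nucleosome, OIP5 (log2 -0.44) and CENPA (29.8 and 32.0 CPM in the combination against 38.5 and 35.9, log2 -0.27) fell. In the outer kinetochore, SPC25 (16.1 and 15.6 against 11.1 and 12.4 CPM, log2 -0.43, adjusted p = 0.0063), SPC24 (61.1 and 62.5 against 46.9 and 47.9 CPM, log2 -0.38, adjusted p = 0.0010), KNL1 (-0.39), ZWINT (107 and 104 against 84.7 and 83.7 CPM, log2 -0.33, adjusted p = 0.0050), NUF2 (52.0 and 51.6 against 40.8 and 43.0 CPM, log2 -0.31, adjusted p = 0.0075), CENPE (-0.37) and SKA2 (-0.31) fell. Of the checkpoint genes, BUB1B (72.8 and 70.0 against 53.4 and 51.9 CPM, log2 -0.44, adjusted p = 0.0065) and TTK (-0.26) fell. SPC24 and TTK, which rose with indisulam alone, thus fell from that level in the combination. SPC24 passed in all 18 settings tried for this comparison, and TTK in 11 of 18. Both comparisons use the same indisulam libraries, with opposite sign, so the rise and the fall are not independent. No member of the MIS12 complex passed. For the 0 rises, 29 of 41 members had an unadjusted p under 0.05 in either direction, beside 4145 of the 18661 genes tested. DESeq2 called 21 members lower and 0 higher, with 908 lower and 489 higher over all genes. Without either combination library or indisulam replicate 1, fewer of all genes tested were called lower, and fewer members. The count of falls was 4 without combination replicate 1 (CENPI, CENPM, SPC24 and ZWINT), 5 without combination replicate 2 (CENPH, NUF2, SKA2, SPC24 and SPC25), 8 without indisulam replicate 1 and 10 with scaling by total counts alone, which took all genes from 807 lower and 592 higher to 498 and 942.

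**Figure D3:**
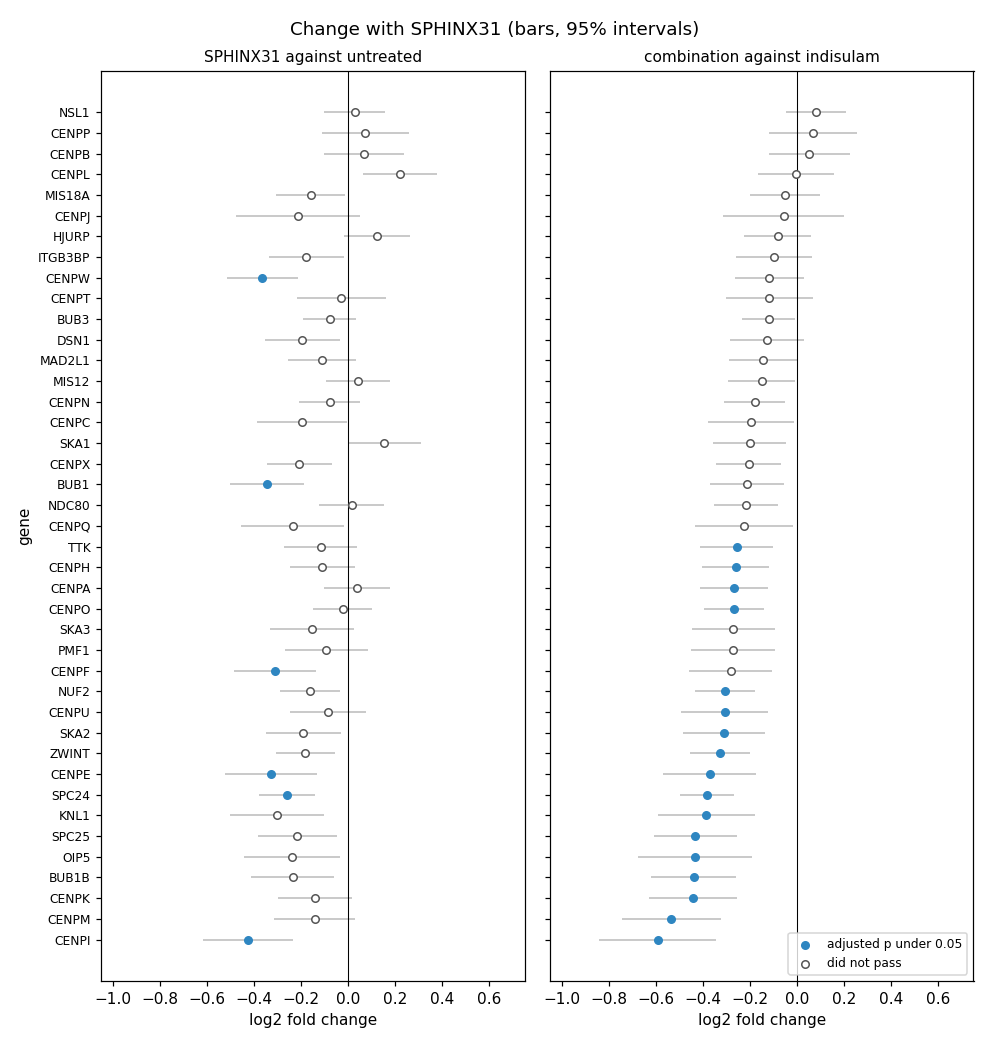
Log2 fold changes (x axis) with 95% intervals of 41 members (y axis) for SPHINX31 against untreated (left) and the combination against indisulam (right), filled where the adjusted p was under 0.05. On the right 17 members are filled, all to the left of 0, and on the left 6 are.

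Genes of the cell cycle moved with these falls. In SPHINX31 against untreated, 11 of 22 S phase genes and 11 of 23 G2/M genes fell and 0 of either rose (median log2 -0.24 and -0.20). Over all genes tested 3.67% fell and 4.94% rose. The G2/M genes also differed between libraries of one group: 19 of 23 were lower in SPHINX31 replicate 1 than in replicate 2 (median log2 ratio -0.12). In untreated replicate 1, 20 of 23 were lower than in replicate 2 (-0.04). In the combination against indisulam, 19 of 23 G2/M genes and 5 of 22 S phase genes fell (median log2 -0.33 and -0.18). Over all genes tested 4.32% fell. ANLN (log2 -0.61), KIF20A (-0.57) and TOP2A (-0.52) were the lowest of the G2/M genes. The summed G2/M level went from 4091 ± 170 CPM (SD, n = 2) untreated to 3622 ± 122 with indisulam, 3426 ± 271 with SPHINX31 and 2790 ± 7.40 in the combination. With indisulam the fall of the sum lay in TOP2A (656.8 to 342.2 CPM) and ECT2 (529.5 to 298.1 CPM), not in the list as a whole. With indisulam alone the 23 G2/M genes were mixed, 5 lower and 7 higher (median log2 -0.02), beside 23.5% and 20.1% of all genes tested. TOP2A (-0.94), ECT2 (-0.83) and CDC25C (-0.81) were the lowest. These examples were chosen after their values were seen. The part of the cell cycle in the members' changes was not tested.

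Of 23 other genes of the same structures that are not members, 3 fell with indisulam and 7 rose (median log2 0.08). The shares of all genes tested were 23.5% and 20.1%. The falls were CENPS, the histone-fold partner of CENPX (log2 -0.99, adjusted p = 0.00052, on 39 to 110 counts per library), KNTC1 of the RZZ complex (log2 -0.33) and AURKB, the kinase of the chromosomal passenger complex (log2 -0.18), the last 2 named after their values were seen. The rises included CENPV (log2 0.46), ZWILCH, another RZZ subunit (0.38), and CDCA8 (0.33), a passenger complex partner of AURKB. In SPHINX31 against untreated 5 fell and 2 rose, where 3.67% of all genes tested fell and 4.94% rose. Among the 5 were SGO2, which protects centromeric cohesion (log2 -0.34), and the passenger complex scaffold INCENP (-0.30). The 2 that rose were NDEL1 (0.29) and BOD1 (0.25). In the combination against indisulam 11 fell and 1 rose, where 4.32% of all genes tested fell and 3.17% rose. Among the 11 were SGO2 (log2 -0.36), KNTC1 (-0.35) and CDCA8 (-0.29). The 1 that rose was BOD1 (0.28), named after its value was seen.

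Whether the compounds departed from adding up on the log2 scale was tested as an interaction. By edgeR 0 of 41 members passed in either direction, lower or higher, where 0.0% of all genes tested were called lower and 0.0% higher. At an unadjusted p under 0.05 there were 9 of 41 members, beside 1584 of the 18661 genes tested. DESeq2 called 0 members, and 28 genes lower and 4 higher over all genes. The lowest estimates were those of CENPM (log2 -0.39, 95% interval -0.66 to -0.12, adjusted p = 0.44), SKA1 (-0.36, interval -0.57 to -0.14, adjusted p = 0.41) and CENPA (-0.31, interval -0.51 to -0.10, adjusted p = 0.43). That of CENPI was -0.17, and the median over the members was -0.12 beside 0.00 for all genes.

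In the combination against untreated, the contrast from which CENPI was taken, the log2 fold change was -2.62 for CENPI, -2.07 for CENPK, -1.86 for CENPM, -1.59 for SKA2, -1.56 for CENPU and -1.49 for OIP5, with KNL1 next at -0.99. The highest was CENPC at 0.36. By the threshold used above, 22 members were lower and 4 higher, where 26.3% of all genes tested were lower and 23.8% higher, and nothing is read from these counts. Scaling by total counts alone made them 21 and 8, and the 4 became 1 without untreated replicate 1 and 2 without untreated replicate 2.

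A few features of the 6 genes that fell at least 2-fold with indisulam were described, and whether they share a trait was not tested. The GC content of their canonical transcripts ran from 32.8% to 59.7%, against 34% to 66.5% for the other members. They lie on 6 chromosomes. Their canonical transcripts have 4 to 22 exons and 938 to 5584 bases, inside the ranges of the other members. Over 41 members, which are not independent of each other, the Spearman correlation of the log2 fold change with indisulam was 0.08 with exon number, 0.04 with GC content, 0.06 with transcript length, -0.09 with gene span and -0.01 with the untreated level per kilobase. In untreated cells the members ran per kilobase of merged exon from 0.915 CPM for CENPP and 1.70 CPM for CENPC to 32.1 CPM for HJURP and 42.1 CPM for ZWINT, with the 6 genes between 4.26 CPM (CENPI) and 20.1 CPM (SKA2).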

How the data were processed

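RNA from A549 cells was sequenced in 8 libraries, 2 for each of 4 groups. The authors made strand-specific libraries of polyadenylated RNA, and their processing notes name HISAT2 2.2.1, HTSeq and GRCh38. The deposited values are raw counts of reads per gene. The counting's annotation and strand setting are not given in the sources used here. Between 83.0% and 86.0% of reads in each file were on genes, and rows that name no gene stayed out of library sizes and tests. Depth per library gives members other than MAD1L1 at least 227 counts.

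Gene names, coordinates and exons came from GENCODE v44, which holds 60370 of the 60624 gene IDs. Counts were filtered with filterByExpr, scaled with TMM (factors 0.978 to 1.02) and fitted with edgeR 4.0.16 in R 4.3.3. One model took in the 8 libraries and left 4 residual degrees of freedom, at a biological coefficient of variation of 0.0491. Quasi-likelihood tests were adjusted by Benjamini-Hochberg over 18661 genes, with a threshold of 0.05 and two-sided p-values. CPM values use the TMM library sizes, and levels between genes were compared per kilobase of merged exon. Intervals are 95% and use the total degrees of freedom of the test. The code was tested on simulated data. DESeq2 1.42.0, other scalings and filters, GC correction in 50 bins, a replicate block and leaving out each library were tried as alternatives. The 2 libraries of each group were not copies of one another: a chi-square statistic of their counts, divided by its degrees of freedom, was 6.59 to 10.7. Promoters came from RefSeq GRCh38.p14.

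All members were named, with values in every library for CENPI and, in each role, for up to 3 members that passed in a comparison, in the same direction in both replicates and with a mean log2 CPM no lower than 1. Values for other members were added after they were seen. The members and the gene lists were chosen with earlier results of these data known. One result for a listed gene is not reported here.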

Additional observations from a re-analysis of the deposited data

How the results depend on the processing

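For the members that the naming rule picked, 1470 log2 fold changes were computed under an alternative. Of these, 1317 stayed on the same side of the threshold. They include values that passed in neither fit and changed direction, such as CENPA with indisulam (log2 from -0.10 to 0.01). Another 87 kept their direction and no longer passed, and 66 newly passed in the same direction. A change of direction with a pass in either fit occurred in 0. CENPK, CENPM, CENPU, SKA2 and OIP5 passed in all 20 settings for indisulam against untreated, with OIP5 from -1.13 to -0.98 on the log2 scale. CENPI ran from -2.08 to -1.99. The replicate numbers did not pair the libraries: the correlation of same-numbered deviations ran from -0.57 to 0.46. With the numbers as a replicate block, 12 members were lower and 8 higher with indisulam, 4 lower with SPHINX31 and 16 lower in the combination against indisulam. A crossed pairing of untreated and indisulam libraries, chosen after seeing the data, gave 15 lower and 12 higher, against 11 and 8 uncrossed. Over all genes the crossed pairing gave 5417 lower and 5187 higher, against 3822 and 3191 uncrossed. For SPHINX31 against untreated (6 lower, 0 higher), the GC correction gave 16 and 1, the GC correction with the replicate block 15 and 1, an adjusted p under 0.1 gave 10 and 1, and total counts alone 1 higher. Without 1 library the lower count ran from 0 to 15 and the higher from 0 to 1. For the combination against indisulam (17 lower), total counts alone gave 10, and without 1 library the range was 4 to 22. For the combination against untreated (4 higher), total counts alone gave 8, the libraries compared alone 7 and an adjusted p under 0.1 also 7, and without 1 library the range was 1 to 6. For the combination against SPHINX31 (11 higher) that range was 4 to 11. Leaving out a library leaves its group with 1, whose spread is then taken from the other groups. The number of calls over all genes tested also changed with the library left out. Otherwise the cause of these shifts was not tested. Levels per kilobase, and the order of members by them, depend on the length used. In untreated cells CENPI was at 4.26 CPM by merged exons and at 5.32 CPM by the longest transcript. CENPH went from 18.1 to 29.6 CPM and CENPK from 8.83 to 22.0 CPM, while OIP5 was at 9.75 CPM by both. All 41 members tested had at least 100 counts in every library, so that check changed no count.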
